A study of Mus musculus with 18 samples.

Results

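Glucagon, encoded by Gcg, and 8 further genes used as markers of pancreatic alpha cells (Irx1, Irx2, Ttr, Gpx3, Higd1a, Tmem27, Slc38a5 and Dpp4) were followed across 18 RNA-seq libraries of mouse islets. The genes were chosen by symbol, which took 9 of the 53801 mouse genes in the count tables. All 9 passed the filter on low counts, which left 18364 genes for testing. The libraries were made from whole isolated islets of mice aged 5 weeks on normal chow, either wild type (WT) or heterozygous for the S64F change in the transcription factor MafA (S64F/+). Each male group, WT or S64F/+, had 4 libraries and each female group had 5, and the sources used here do not give the strain or how the allele was made. According to the series' title, the variant belongs to an inherited early-onset diabetes (MODY) and to a beta-cell defect that is stronger in males. The labels do not say that each library came from a separate animal, so the p-values measure the spread between these libraries.

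Alpha cells lie next to the insulin-secreting beta cells of the islet and release glucagon, the hormone that makes the liver put out glucose. Glucagon is cut from a long precursor, proglucagon, which other enzymes cut into glucagon-like peptides in the gut and in some islet cells. Alpha cells also answer to circulating amino acids, and Slc38a5, a transporter of glutamine and other neutral amino acids, is known to be switched on in alpha cells of mice whose glucagon receptor is blocked. MafA is a beta-cell factor that drives the insulin genes. In bulk islet RNA, more cells of a type and more RNA per cell cannot be told apart.

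Promoter windows of 250 bases before the transcription start were found in the RefSeq table (GRCm38.p6) for 7 of the 9 genes. The windows of Gcg, the hormone gene, and of Slc38a5 and Dpp4, whose transcripts moved in the same direction in both sexes, are printed 5′ to 3′ on the strand of the gene. Capitals mark matches on either strand to TGCTGA, the core of a MAF half-site, to TGTTTAC, a forkhead core, to the TATA box motif spelled TATAAA, or to TAATTA, which is a homeodomain palindrome. The windows lie at chr2:62483654-62483903 on the minus strand for Gcg, at chrX:8271131-8271380 on the plus strand for Slc38a5 and at chr2:62412232-62412481 on the minus strand for Dpp4.
Gcg: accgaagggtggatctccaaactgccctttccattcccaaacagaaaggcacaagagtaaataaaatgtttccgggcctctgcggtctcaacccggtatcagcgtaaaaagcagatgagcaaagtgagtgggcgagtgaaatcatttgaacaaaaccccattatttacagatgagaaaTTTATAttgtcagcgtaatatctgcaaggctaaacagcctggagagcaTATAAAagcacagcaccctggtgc
Slc38a5: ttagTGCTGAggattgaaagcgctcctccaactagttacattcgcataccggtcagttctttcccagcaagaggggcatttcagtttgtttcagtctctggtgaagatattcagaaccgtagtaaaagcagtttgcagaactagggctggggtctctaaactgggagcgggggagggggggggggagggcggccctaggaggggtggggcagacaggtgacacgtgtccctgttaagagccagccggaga
Dpp4: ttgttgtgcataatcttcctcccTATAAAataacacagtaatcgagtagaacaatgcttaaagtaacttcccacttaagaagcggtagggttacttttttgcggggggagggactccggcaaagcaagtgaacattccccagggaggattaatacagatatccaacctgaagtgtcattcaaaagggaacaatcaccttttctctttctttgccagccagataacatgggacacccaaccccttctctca
The Gcg window held the motif TATAAA from -24 to -19 and its reverse complement TTTATA from -72 to -67, counted from the transcription start. That of Slc38a5 held 1 MAF half-site, from -246 to -241, and that of Dpp4 held 1 TATAAA, from -227 to -222. These starts are those of RefSeq. In GENCODE M21 the Slc38a5 gene starts at 8271133, so by that annotation nearly all of its window, the half-site included, lies inside the gene. Over 32851 promoter windows of the same length, a MAF half-site was found in 16.1%, a TATA box in 12.4%, a homeodomain palindrome in 4.84% and a forkhead core in 3.17%. A match to letters of this kind describes the sequence and shows no binding.

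Gcg and Dpp4 are near neighbours on chromosome 2 (GENCODE M21, GRCm38), at 62474530 to 62483650 and 62330073 to 62412231, both on the minus strand with 62298 bases between them. An antisense gene, Gm13561, overlaps Dpp4, and another, Gm47112, overlaps Higd1a on chromosome 9. They held at most 1 and 11 counts per library, against at least 1148 for Dpp4 and 188 for Higd1a. The strand setting of the counting is not given, so whether reads were gained or lost in the overlaps cannot be told. Irx1 and Irx2 share a cluster on chromosome 13, at 71957921 to 71963723 and 72628820 to 72634198. Slc38a5 and Tmem27 lie on the X chromosome, at 8271133 to 8280179 and 164088830 to 164118860, and Gpx3 lies on chromosome 11, at 54902453 to 54910377.

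Library totals ranged from 19.3 to 108.7 M counts, and Gcg held 597295 to 4276225 of them. Even Higd1a, with the fewest, held 188 counts in the shallowest case, so the spread between libraries and not the depth set the precision. Levels in CPM, counts scaled to library size, use sizes adjusted by the trimmed mean of M values (TMM), and a difference is said to pass where edgeR's quasi-likelihood test, fitted to all 18 libraries and adjusted by Benjamini-Hochberg over 18364 genes, gave an adjusted p below 0.05. Errors of log2 fold changes are standard errors.

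Levels of different genes were compared per length with the deposited FPKM, a unit scaled to gene length and library size. The lengths implied by these values ran from 1219 bases for Ttr to 8166 for Dpp4, with 2509 for Gcg and 7025 for Higd1a. The order of genes depends on these lengths, which were not checked against the transcripts made in islets. In male WT islets Gcg stood at 13878 ± 1447 FPKM (SD, n = 4), below Ins1 at 61363 ± 5374 FPKM and Ins2 at 34364 ± 2443 FPKM, the insulin genes, and above the delta-cell hormone gene Sst at 4259 ± 1621 FPKM. Without scaling to length the insulin genes came in the other order, Ins2 at 163741 ± 21999 CPM and Ins1 at 66108 ± 9418 CPM. Next among the alpha-cell genes was Ttr, which encodes the carrier of thyroid hormone and retinol-binding protein, at 1213 ± 102 FPKM. Gpx3, a secreted glutathione peroxidase, and Tmem27, a membrane protein that brings amino acid transporters to the cell surface and is also known from beta cells, followed at 193 ± 26.1 and 168 ± 15.3 FPKM, with overlapping ranges. Dpp4, a cell-surface peptidase that cuts glucagon-like peptides and other hormones, lay at 10.7 ± 1.18 FPKM. The Iroquois homeobox genes Irx2 and Irx1 lay at 8.68 ± 1.21 and 8.38 ± 1.23 FPKM, and Slc38a5 at 5.95 ± 1.25 FPKM. Neighbours in this stretch, from Dpp4 to Slc38a5, had overlapping ranges. Higd1a, a small mitochondrial protein induced by low oxygen, was lowest at 1.74 ± 0.317 FPKM.

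The means came in the same order in female WT islets, and in S64F/+ islets Slc38a5 moved up and Dpp4 down. In male S64F/+ islets Slc38a5 reached 29.9 ± 4.63 FPKM (SD, n = 4), and its lowest library, at 25.7, lay above the highest for Irx2 (15.3), Irx1 (14.6) and Dpp4 (9.17). In female S64F/+ islets it was at 23 ± 4.6 FPKM (SD, n = 5), over Dpp4 at 6.89 ± 1.34, while its range of 17.2 to 28.5 overlapped those of Irx1 and Irx2. Thus Slc38a5 lay below Dpp4 in WT islets and above it in S64F/+ islets, with no overlap in any of the 4 groups. Of all counts, Gcg took 3.09 to 3.96% in WT and 3.91 to 6.34% in S64F/+ males, and 3.08 to 4.26% in WT and 6.06 to 7.45% in S64F/+ females.

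**Figure D1:**
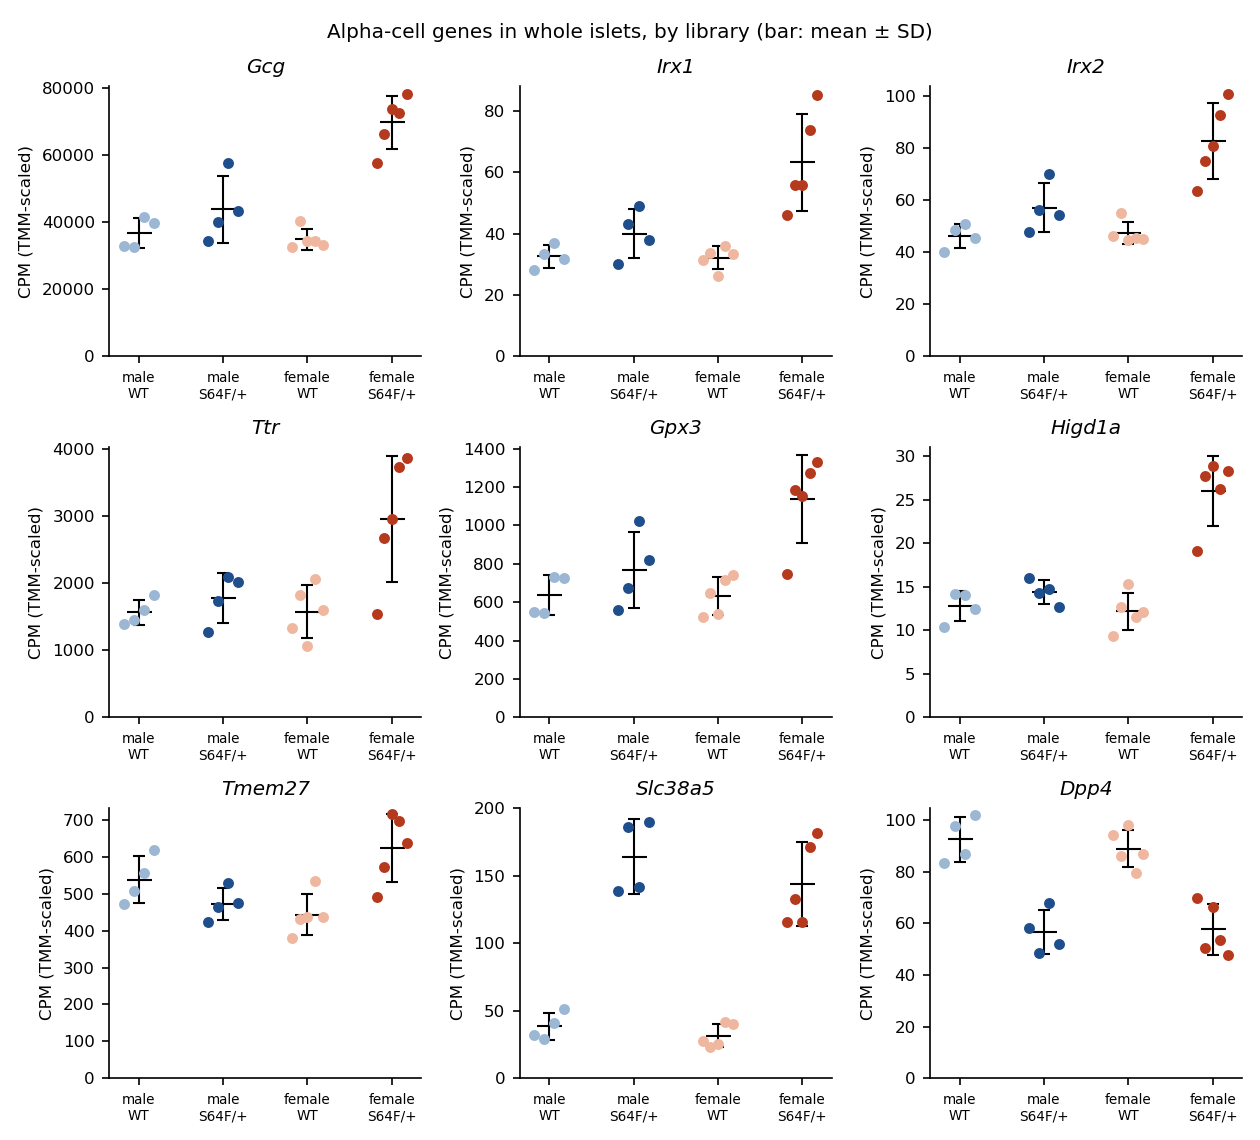
Level of each of the 9 genes in each of the 18 libraries, in TMM-scaled CPM (y axis, linear from 0), by group (x axis, with points spread sideways in replicate order). Horizontal bars are means and whiskers are SD (n = 4 male, n = 5 female libraries per group). For Gcg the 5 female S64F/+ libraries, from 57750 to 78344, all lie above the 5 female WT libraries, while the male groups overlap. Slc38a5 is higher and Dpp4 lower in S64F/+ islets of both sexes, with no overlap.

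In female islets the S64F allele went with higher levels of 8 of the 9 genes and a lower level of Dpp4, and all 9 differences passed. Over all tested genes 21.2% passed in this contrast, 10.2% higher and 11.0% lower in S64F/+. Groups did not overlap for 6 genes that were higher, against 5.28% of all genes, and for Dpp4, which was lower, against 6.36%. The median log2 fold change was 0.91 over the 9 genes and 0.02 over all genes tested.

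Glucagon itself stood at 32532, 40293, 34266, 34319 and 33160 CPM in the female WT libraries and at 57750, 66397, 73943, 72650 and 78344 CPM in the female S64F/+ libraries. Every S64F/+ library lay above every WT library. The log2 fold change was 1.00 ± 0.13, a 2.00-fold rise (adjusted p = 3.34e-05).

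The Iroquois genes encode homeobox factors enriched in alpha cells, and both rose. Irx1 stood at 31.5, 33.6, 26.3, 36.1 and 33.4 CPM in female WT and at 46, 56, 55.7, 73.7 and 85.2 CPM in female S64F/+ libraries. Irx2 stood at 46.2, 55.3, 44.9, 45.6 and 45.3 CPM in WT and at 63.8, 75.3, 81.1, 92.7 and 101 CPM in S64F/+ libraries. Neither pair of groups overlapped. The log2 fold changes were 0.98 ± 0.15 for Irx1 (1.97-fold, adjusted p = 0.000194) and 0.80 ± 0.12 for Irx2 (1.74-fold, adjusted p = 8.59e-05).

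Higd1a, the gene for a mitochondrial protein, had the largest rise of the 9 genes after Slc38a5. It stood at 9.37, 12.7, 15.3, 11.5 and 12.1 CPM in female WT and at 19.1, 27.7, 28.9, 26.2 and 28.3 CPM in female S64F/+ libraries. The log2 fold change was 1.10 ± 0.13, or 2.14-fold (adjusted p = 1.07e-05). Replicate 1 of female S64F/+ was well below the other 4 yet above all WT libraries.

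Gpx3 stood at 522, 646, 539, 717 and 740 CPM in WT and at 745, 1183, 1155, 1273 and 1329 CPM in S64F/+ females and the groups were narrowly apart. Its log2 fold change was 0.85 ± 0.17 (1.80-fold, adjusted p = 0.00179). The groups overlapped for Ttr, at 1328, 1818, 1065, 2059 and 1607 CPM in WT and 1539, 2670, 2962, 3731 and 3862 CPM in S64F/+ libraries. Here replicate 1 of female S64F/+ lay inside the WT range and the other 4 lay above it. Ttr rose by a log2 fold change of 0.91 ± 0.22 (1.87-fold, adjusted p = 0.00676).

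Tmem27 stood at 379, 430, 437, 535 and 436 CPM in female WT and at 492, 573, 715, 696 and 638 CPM in female S64F/+ libraries. Its rise was the smallest of the 8, with a log2 fold change of 0.49 ± 0.11 (1.40-fold, adjusted p = 0.00442). Replicate 1 of female S64F/+ again overlapped with the WT libraries. That library was the lowest of its group for 7 of the 9 genes, which were Gcg, Irx1, Irx2, Ttr, Tmem27, Gpx3 and Higd1a, and the highest for Dpp4. Without it all 9 genes still passed.

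Slc38a5 showed the largest change of the 9. In females it stood at 27.7, 23.2, 25.1, 41.6 and 39.9 CPM in WT and at 116, 133, 116, 171 and 182 CPM in S64F/+ libraries. The lowest S64F/+ library was far above the highest WT library, and the log2 fold change was 2.19 ± 0.20 (4.55-fold, adjusted p = 1.39e-06). Dpp4 went the other way. It stood at 94.1, 86.3, 98, 79.5 and 86.8 CPM in WT and at 70, 50.6, 66.5, 53.7 and 47.7 CPM in S64F/+ females, again with no overlap. The log2 fold change was -0.62 ± 0.11 (0.649-fold, adjusted p = 0.000547). All 9 female results kept their direction and passed under each of 25 alternatives, including leaving out each library.

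In male islets only Slc38a5 and Dpp4 passed, 2 of the 9 genes against 27.6% of all genes, 15.4% higher and 12.3% lower. For these 2 the groups did not overlap, as for 17.8% of all genes among the higher and 17.3% among the lower. The median log2 fold change over the 9 was 0.25, beside -0.03 over all genes. Slc38a5 stood at 32.1, 29, 40.9 and 51.6 CPM in male WT and at 139, 186, 142 and 190 CPM in male S64F/+ libraries. The log2 fold change was 2.10 ± 0.23 (4.28-fold, adjusted p = 5.37e-06). Dpp4 stood at 83.5, 97.8, 86.9 and 102 CPM in WT and at 58.3, 48.5, 68 and 52 CPM in S64F/+ males. It fell by 0.71 on the log2 scale, with an SE of 0.12 (0.613-fold, adjusted p = 0.000349). Both calls held under all 25 alternatives.

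For glucagon the male groups overlapped. Gcg stood at 33022, 32752, 41552 and 39898 CPM in male WT and at 34347, 40042, 57587 and 43413 CPM in male S64F/+ libraries. The log2 fold change was 0.25 ± 0.15 (adjusted p = 0.226), with an approximate 95% interval from -0.04 to 0.54. Only 2 of the 4 S64F/+ libraries lay above all WT libraries.

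The Iroquois genes gave like values, with Irx1 at 28, 33.3, 37.1 and 31.8 CPM in WT and 30, 43, 48.9 and 38 CPM in S64F/+ males. Irx2 stood at 40.2, 48.8, 50.8 and 45.6 CPM in WT and at 47.7, 56.5, 70.3 and 54.4 CPM in S64F/+ males. Their log2 fold changes were 0.29 ± 0.17 (adjusted p = 0.223) and 0.30 ± 0.13 (adjusted p = 0.0957). Irx2 was the only one of the 7 with an unadjusted p below 0.05, at 0.0327.

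The other 4 genes did not pass in males either, and their groups overlapped. Ttr ranged from 1394 to 1818 CPM in WT and from 1269 to 2094 CPM in S64F/+ males, with a log2 fold change of 0.19 ± 0.24 (adjusted p = 0.62). Gpx3 ranged from 545 to 730 and from 561 to 1021 CPM, with a log2 fold change of 0.27 ± 0.19 (adjusted p = 0.314). Both genes spread widely within the S64F/+ group. Higd1a ranged from 10.4 to 14.2 and from 12.7 to 16 CPM, at 0.17 ± 0.15 (adjusted p = 0.437). Tmem27 alone among the 7 had a negative estimate, from 471 to 617 CPM in WT and 423 to 528 CPM in S64F/+ males, at -0.19 ± 0.13 (adjusted p = 0.294). Replicate 1 of male S64F/+ was the lowest of its group for 7 of the 9 genes and replicate 3 the highest for 7.

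The male result depended on how libraries were scaled. With plain library totals 6 genes passed, as Gcg (log2 fold change 0.48, adjusted p = 0.0171), Irx1 (0.51, adjusted p = 0.0258), Irx2 (0.52, adjusted p = 0.0091) and Gpx3 (0.50, adjusted p = 0.0354) joined Slc38a5 and Dpp4. With library totals that leave out Ins1 and Ins2, Irx2 passed beside Slc38a5 and Dpp4 (0.38, adjusted p = 0.0487). Plain totals also moved the median over all genes from -0.03 to 0.19 and the calls from 2819 higher and 2252 lower to 4245 higher and 668 lower.

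**Figure D2:**
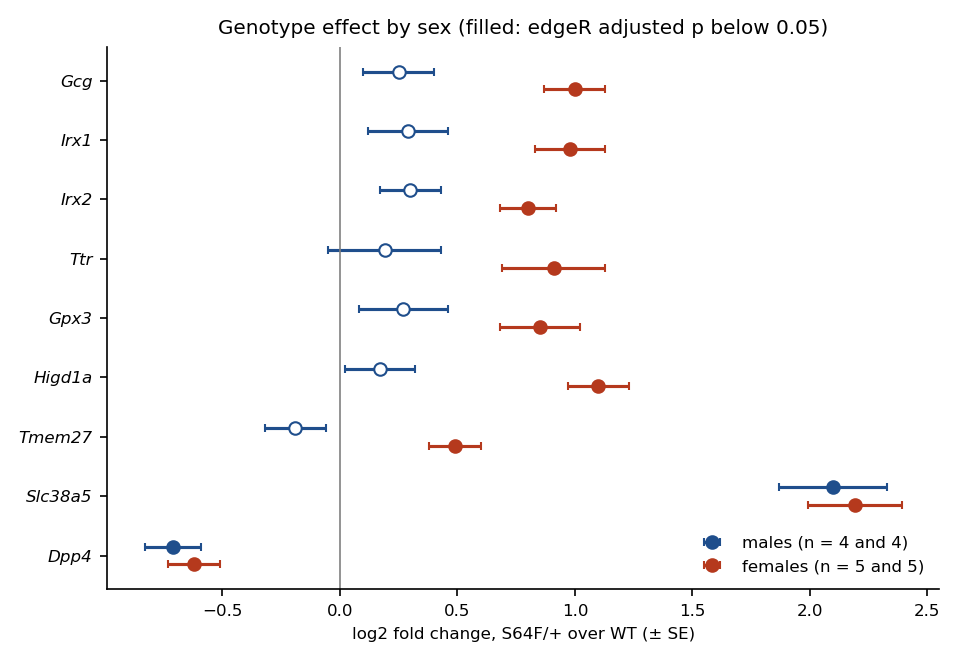
Log2 fold change of S64F/+ over WT (x axis, linear) for each gene, in males (blue, n = 4 and 4) and females (red, n = 5 and 5), with whiskers of 1 standard error. Filled points have an edgeR adjusted p below 0.05. Slc38a5 and Dpp4 give like values in both sexes, at 2.10 and 2.19 and at -0.71 and -0.62, while the other 7 genes lie further right in females.

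The difference between the sexes in the response to genotype was tested as an interaction, the male minus the female log2 fold change. All 9 estimates were negative, and 7 had an unadjusted p below 0.05. After adjustment 3 passed, all lower in males, beside 4.47% of all genes in either direction and 1.60% lower. They were Gcg at -0.75 ± 0.20 (adjusted p = 0.0429), Tmem27 at -0.68 ± 0.17 (adjusted p = 0.0329) and Higd1a at -0.93 ± 0.20 (adjusted p = 0.0172). For Irx1 the estimate was -0.68 ± 0.23 (adjusted p = 0.0847), for Irx2 -0.50 ± 0.18 (adjusted p = 0.0968), for Ttr -0.72 ± 0.33 (adjusted p = 0.183) and for Gpx3 -0.57 ± 0.26 (adjusted p = 0.178). Slc38a5 at -0.09 ± 0.30 and Dpp4 at -0.08 ± 0.17 did not pass, with approximate 95% intervals from -0.67 to 0.49 and from -0.41 to 0.24.

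The Higd1a call was kept in 23 of 24 alternatives, with an adjusted p of 0.0661 under plain library totals. Those of Gcg and Tmem27 were less stable, kept in 8 and 11 of 24. With plain totals none of the 9 passed, and the median over all genes moved from 0.01 to 0.25. With the replicate number as a block in both sexes 5 passed, Irx1 (adjusted p = 0.036) and Gpx3 (adjusted p = 0.0434) being added. The male part of this block rests on replicate numbers whose libraries gave no pairing. Left-out libraries changed the count as well, to 6 without female S64F/+ replicate 1 and to 1 without any of male WT 3 or 4, male S64F/+ 1, 2 or 4, female WT 1, 2, 3 or 5 and female S64F/+ 4 or 5. The Gcg call was kept only without male WT 2, male S64F/+ 3, female WT 4 or female S64F/+ 1 or 2.

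Between WT males and WT females none of the 9 genes passed edgeR's test, beside 2.36% of all genes, and none by DESeq2 or another alternative. Tmem27 had an unadjusted p below 0.05 (0.0294), at a male minus female log2 difference of 0.28 ± 0.12 (adjusted p = 0.22), and the other 8 did not. For Gcg the difference was 0.08 ± 0.14, with an approximate 95% interval from -0.20 to 0.35. Between S64F/+ males and S64F/+ females 7 genes passed, all lower in males, beside 16.1% of all genes and 8.12% lower. Gcg was lower by 0.67 ± 0.14 (adjusted p = 0.00623, a log2 difference of -0.67) and Higd1a by 0.85 ± 0.14 (adjusted p = 0.00117, a log2 difference of -0.85), and their groups did not overlap, as for 8.27% of all genes among the lower.

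For the other 5 the S64F/+ groups of the sexes overlapped. Log2 differences were -0.67 ± 0.16 for Irx1 (adjusted p = 0.0127), -0.53 ± 0.12 for Irx2 (adjusted p = 0.00995), -0.73 ± 0.23 for Ttr (adjusted p = 0.0414), -0.40 ± 0.12 for Tmem27 (adjusted p = 0.0318) and -0.56 ± 0.18 for Gpx3 (adjusted p = 0.0429). Slc38a5, at 0.20 ± 0.21, and Dpp4, at -0.02 ± 0.12, did not pass. The Ttr call was lost without male WT 3, any male S64F/+ library or female S64F/+ 2, 3, 4 or 5 (adjusted p up to 0.123). That of Gpx3 was lost without male S64F/+ 1, 2 or 4, female WT 2 or female S64F/+ 2, 3, 4 or 5 (adjusted p up to 0.133), and that of Tmem27 without male S64F/+ 1, 2 or 4 or female S64F/+ 3, 4 or 5 (adjusted p up to 0.097). With plain library totals Irx2 was lost as well (adjusted p = 0.0778), along with Ttr, Tmem27 and Gpx3. The contrasts between sexes and between genotypes use the same 18 libraries and are not independent.

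A count ratio within a library does not depend on the scaling between libraries, so Gcg was also set against insulin. In males the Gcg count was 16.1 ± 2.12% of the Ins1 plus Ins2 count in WT and 36.2 ± 8.21% in S64F/+ islets (SD, n = 4 each). Values ran from 13.9 to 18.7% and from 29.8 to 48.2%, so the groups were apart. The log2 difference was 1.15 ± 0.18, or 2.22-fold (exact permutation test, two-sided, p = 0.0286, adjusted p = 0.0286 over the 2 sexes). In females the ratio was 18.9 ± 5.06% in WT, from 11.9 to 24.4%, and 40.1 ± 6.97% in S64F/+ islets, from 32.1 to 47.6% (SD, n = 5 each). The log2 difference was 1.12 ± 0.22, or 2.17-fold (exact permutation test, two-sided, p = 0.00794, adjusted p = 0.0159). All 5 same-numbered female pairs were higher in S64F/+, by 0.51 to 1.52, and an exact permutation within these pairs gave p = 0.0625, the smallest that 5 pairs allow.

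The parts of the ratio were read from the fit across all genes. In males both insulin transcripts were lower in S64F/+ islets, Ins1 with a log2 fold change of -1.16 ± 0.20 (adjusted p = 0.00038) and Ins2 with -0.84 ± 0.21 (adjusted p = 0.00611), beside the Gcg value of 0.25. In females Ins1 was at -0.45 ± 0.18 (adjusted p = 0.0882) and Ins2 at -0.01 ± 0.19 (adjusted p = 0.971), beside the rise of Gcg by 1.00. The interaction was at -0.71 ± 0.27 for Ins1 (adjusted p = 0.122) and -0.82 ± 0.28 for Ins2 (adjusted p = 0.0892), so the insulin changes were not shown to differ between the sexes. Leaving out 1 male library of either genotype gave log2 differences from 1.00 to 1.23, all with an exact permutation p of 0.0571, the smallest that 3 libraries against 4 allow.

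Sst, the delta-cell hormone gene, was the other reference. Its counts rose in female S64F/+ islets (log2 fold change 1.14 ± 0.19, adjusted p = 0.000245), and in males the value was 0.44 ± 0.20 (adjusted p = 0.118). Without male WT 3 the male rise passed (0.73, adjusted p = 0.00589). The log2 difference of the Gcg to Sst ratio between genotypes was -0.25 ± 0.23 in males and -0.15 ± 0.11 in females (exact permutation test, two-sided, adjusted p = 0.343 in both).

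**Figure D3:**
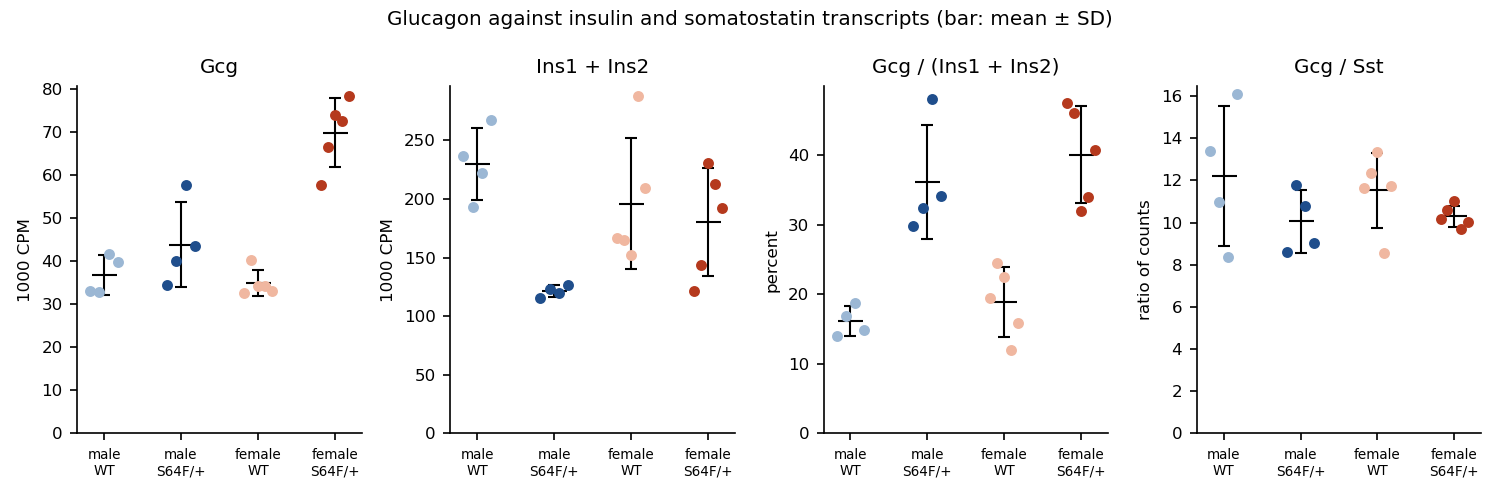
From left to right, Gcg and summed Ins1 plus Ins2 levels (in units of 1000 TMM-scaled CPM), the Gcg count as a percentage of the Ins1 plus Ins2 count, and the Gcg to Sst count ratio, by group. Points are libraries, bars means and whiskers SD (n = 4 male, n = 5 female per group), and all y axes are linear from 0. Gcg as a share of insulin is higher in S64F/+ islets of both sexes with no overlap, 29.8 to 48.2% against 13.9 to 18.7% in males and 32.1 to 47.6% against 11.9 to 24.4% in females. The Gcg to Sst ratios overlap.

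Expressed per 1000 Gcg counts of the same library, the other 8 genes differed in whether the genotypes overlapped. Irx1, Ttr, Gpx3 and Higd1a overlapped between genotypes in both sexes, as did 77.2% of all genes in males and 35.8% in females. Medians were 0.87 in male WT and 0.874 in male S64F/+ for Irx1, and 0.968 and 0.844 in females. For Higd1a they were 0.327 and 0.325 in males and 0.335 and 0.362 in females. For Ttr the medians were 43.2 and 40.2 in males and 45.1 (31.1 to 60) and 40.2 (26.6 to 51.3) in females. For Gpx3 they were 17.1 and 17.3 in males and 16.1 (15.7 to 22.3) and 17 (12.9 to 17.8) in females.

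Slc38a5 was higher per Gcg count in both sexes, going from a median of 0.979 (0.884 to 1.29) to 4.22 (2.46 to 4.65) in males and from 0.852 (0.576 to 1.21) to 2.01 (1.57 to 2.35) in females. No S64F/+ library overlapped with a WT library, as for 8.60% of all genes among the higher in males and 0.349% in females. Dpp4 was lower per Gcg without overlap, with medians of 2.54 and 1.2 in males and 2.62 and 0.762 in females. Tmem27 was lower too, at 14.9 (13.4 to 15.5) against 11.3 (9.17 to 12.3) in males and 12.7 (10.7 to 15.6) against 8.63 (8.15 to 9.66) in females. Irx2 was apart and lower in females alone, at 1.37 (1.31 to 1.42) against 1.13 (1.1 to 1.28). Per Gcg count 14.2% of all genes were lower without overlap in males and 63.8% in females. In females, being lower without overlap was thus the common case among genes, whatever the size of the difference.

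**Figure D4:**
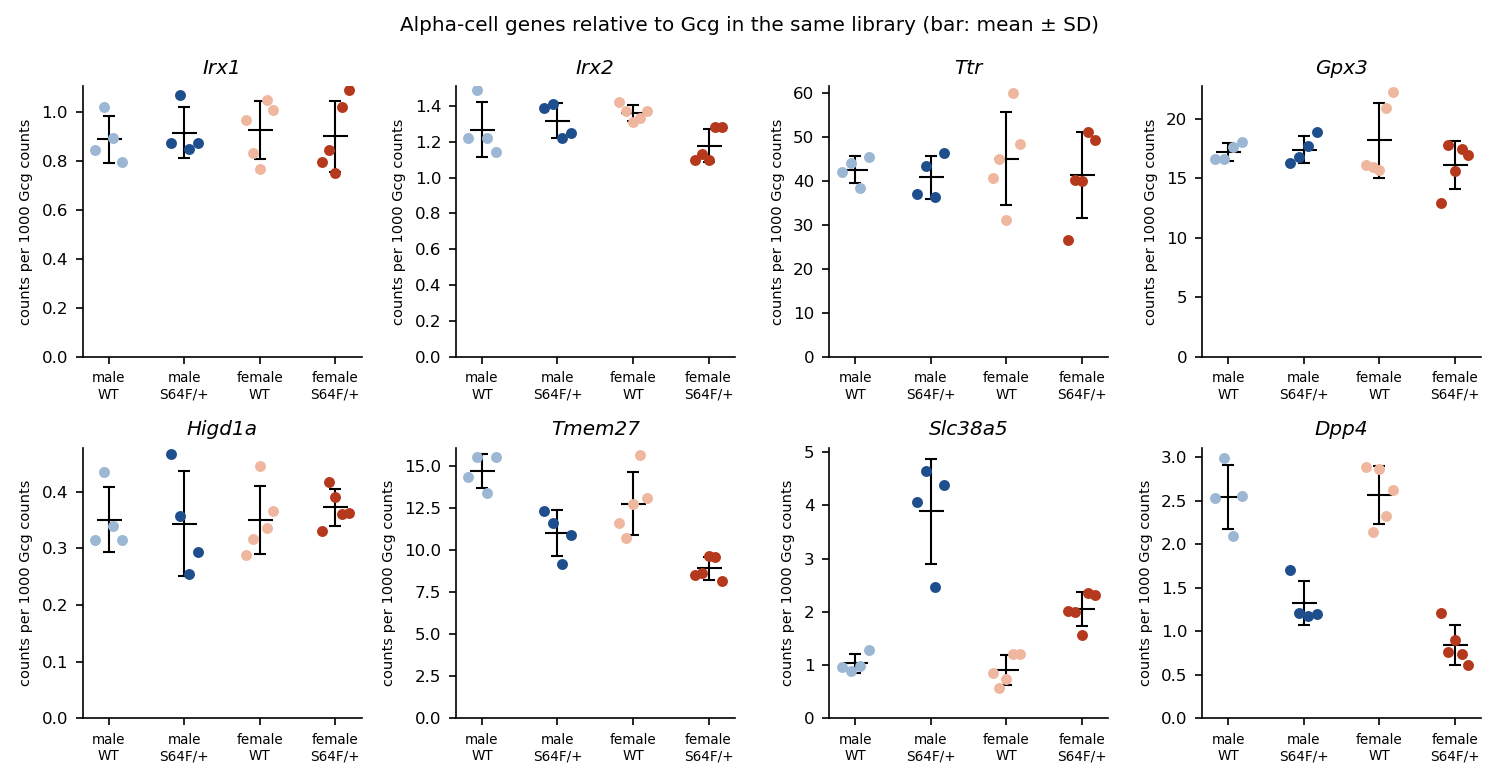
Counts of 8 genes per 1000 Gcg counts in the same library (y axes, linear from 0) by group, with points for libraries, bars for means and whiskers for SD (n = 4 male, n = 5 female per group). Irx1, Ttr, Gpx3 and Higd1a overlap between genotypes. Slc38a5 is higher in S64F/+ islets of both sexes, with medians of 4.22 against 0.979 in males, while Tmem27 and Dpp4 are lower.

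Within groups, the libraries' deviations from the group mean of log2 CPM showed which genes varied with Gcg apart from genotype and sex. Over the 18 libraries the Pearson correlation with Gcg was 0.84 for Irx2 and 0.83 for Gpx3, ranks 2 and 3 among the 14545 genes whose mean reached 1 CPM. It was 0.70 for Irx1, 0.69 for Ttr and 0.67 for Tmem27. These are descriptions in which both genes of a point come from the same library with the same scaling, and no p was computed. Higd1a followed Gcg weakly at 0.31, Slc38a5 at 0.19 and Dpp4 at 0.03, while the median over all genes was -0.01.

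Spearman's rho was 0.74 for Irx2, 0.75 for Gpx3, 0.62 for Irx1, 0.76 for Ttr, 0.70 for Tmem27, 0.22 for Higd1a, 0.22 for Slc38a5 and -0.02 for Dpp4. Leaving out the 2 libraries farthest in Gcg, male S64F/+ 1 and 3, gave Pearson values of 0.78, 0.75, 0.58, 0.69, 0.64, 0.54, 0.30 and -0.25 in the same order. Among themselves Irx1 and Irx2 correlated at 0.88, Ttr and Gpx3 at 0.87 and Irx1 and Ttr at 0.84. Dpp4 had negative values with Slc38a5 (-0.51), Ttr (-0.48) and Irx1 (-0.43). Bulk RNA does not place a transcript in a cell type. Of the 8 genes 5 varied with Gcg within groups, while Slc38a5 and Dpp4 did so little or not at all. For Higd1a the Pearson value was 0.31 over all libraries and 0.54 without male S64F/+ 1 and 3, near the 0.58 of Irx1 without them. The delta-cell gene Sst also reached 0.58 over all libraries, so this measure cannot decide the label of alpha-cell marker.

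Among the other genes most like Gcg by this measure were Drc1 (0.86), Gpr135 (0.80), Gc (0.80), Mas1 (0.79), Klf8 (0.79), Smarca1 (0.78), Kcnip3 (0.76), Msantd1 (0.76) and Gm19705 (0.75). Gc and Smarca1 belong to the list of further alpha-enriched genes described below. For other islet genes the correlation was 0.58 for Sst and 0.47 for Pcsk2. In all, 26 genes exceeded 0.7.

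**Figure D5:**
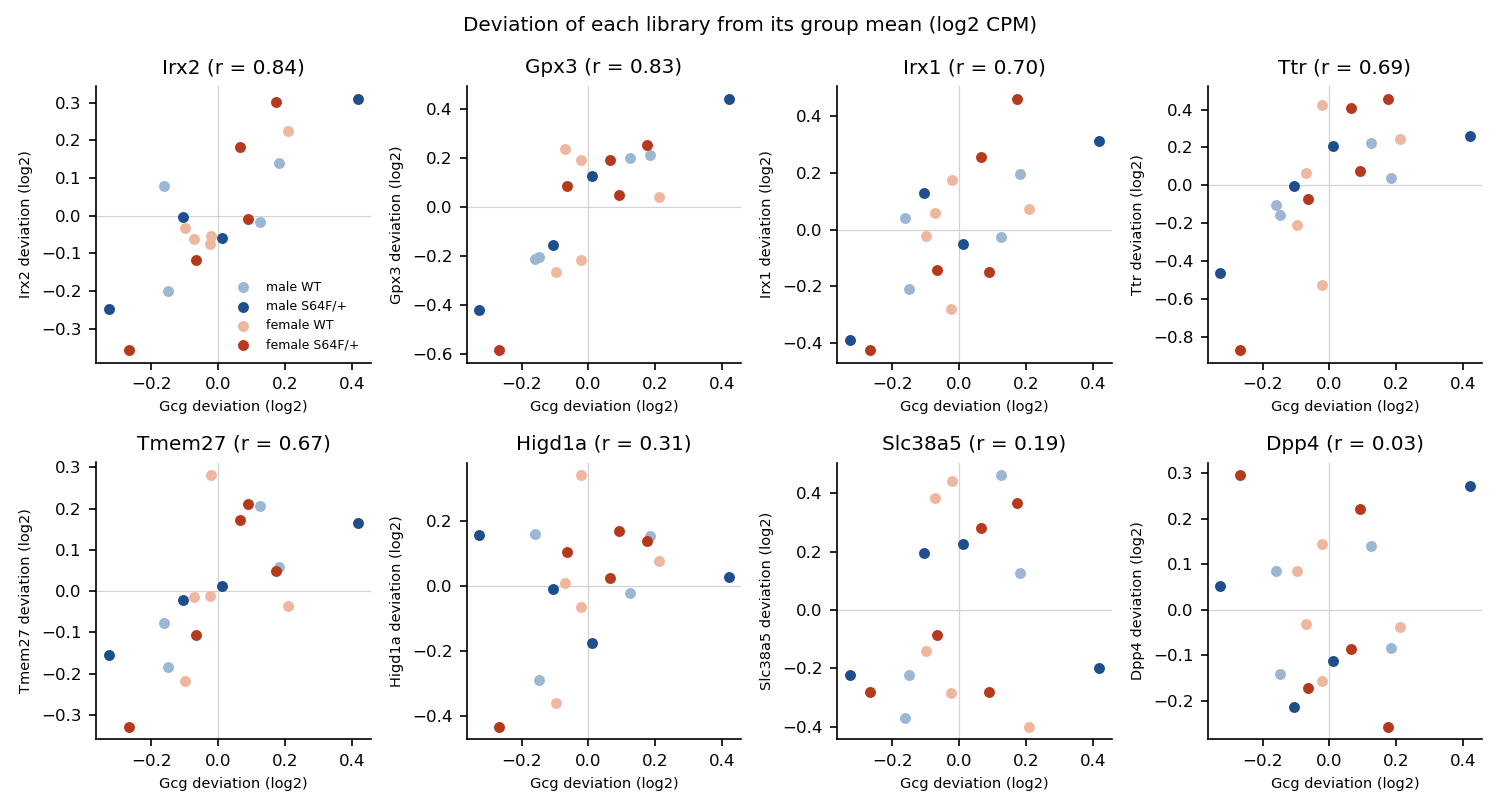
Deviation of each library from its group mean of log2 CPM for 8 genes (y axes) against that for Gcg (x axis), with 1 point per library coloured by group (n = 18) and both axes linear. Irx2 (Pearson r = 0.84) and Gpx3 (0.83) rise with Gcg, while Slc38a5 (0.19) and Dpp4 (0.03) do not.

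Transcription factors of alpha cells and of islet cells in general were read as a group of 13, of which 5 rose and 4 fell in females, and 2 rose and 4 fell in males. Etv1 rose in both sexes (0.39 in males, adjusted p = 0.0067, and 0.75 in females, adjusted p = 9.34e-06), as did Pou3f4, whose male call (adjusted p = 0.0482) was kept in 11 of 25 alternatives and lost without any of 12 single libraries. Nkx2-2 and Pax6, factors shared by several islet endocrine cells, fell in both sexes, Nkx2-2 by 0.64 on the log2 scale in males and by 0.46 in females, and Pax6 by 0.43 and by 0.32. Foxa2 fell in both sexes. Neurod1 fell in males (-0.34 ± 0.08) and was at -0.19 ± 0.07 in females (adjusted p = 0.0796). Rfx6 fell in females (-0.30 ± 0.09) and was at -0.26 ± 0.10 in males (adjusted p = 0.0565). With plain library totals the male calls of Pax6 (adjusted p = 0.113) and Neurod1 (adjusted p = 0.445) were lost. The female Foxa2 call (adjusted p = 0.0357) was kept in 16 of 25 alternatives and lost without female WT 1, 2, 4 or 5 or female S64F/+ 2, 3 or 4 (adjusted p up to 0.12). That of Rfx6 (adjusted p = 0.0201) was lost without female WT 1 or 2 or female S64F/+ 2 or 4. The median of the list was -0.06 in males and 0.03 in females, near that of all genes. None of the 13 passed the interaction test.

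Of 8 further genes enriched in alpha cells, 4 rose and 1 fell in each sex, with medians of 0.56 in males and 0.80 in females. Their summed level, most of it Peg3, ran lower in S64F/+ islets with overlap, from a median of 2739 to 2430 CPM in males and from 3175 to 2523 CPM in females. Smarca1, a chromatin remodeller, rose from 54.3 ± 4.64 to 90.1 ± 5.61 CPM in females (log2 fold change 0.73 ± 0.09, adjusted p = 1.49e-05) and by 0.38 ± 0.10 in males (adjusted p = 0.00896). Sgce, a sarcoglycan, rose by 0.94 ± 0.12 and 0.55 ± 0.14 and the somatostatin receptor gene Sstr2 by 1.03 ± 0.22 and 0.73 ± 0.25 in females and males. The male Sstr2 call (adjusted p = 0.0388) was lost without male WT 1, 2 or 3 or male S64F/+ 2, 3 or 4. Gc, the vitamin D-binding protein and a classical alpha-cell gene, rose in females (0.86 ± 0.21, adjusted p = 0.00728), and in males it was at 0.57 ± 0.23 (adjusted p = 0.0793). The imprinted gene Peg3 fell in both sexes, though in males the call (adjusted p = 0.0297) was lost without male WT 1 or 2 or male S64F/+ 1, 2 or 4. That male call was also lost with plain library totals (adjusted p = 0.561), with totals without Ins1 and Ins2 (adjusted p = 0.129) and without the count filter (adjusted p = 0.074).

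Loxl4, a lysyl oxidase, had the largest male change in that list, from 0.177 ± 0.106 to 2.63 ± 0.976 CPM (log2 fold change 3.84 ± 0.53, adjusted p = 3.75e-05). It was the only one of the 8 past the interaction test, higher in males, at 2.67 ± 0.69 (adjusted p = 0.039), a call kept in 13 of 24 alternatives and lost without any of 11 single libraries.

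Proglucagon is matured in secretory granules. Pcsk2, the convertase that releases glucagon, did not pass, at -0.24 ± 0.11 in males (adjusted p = 0.124) and 0.15 ± 0.10 in females (adjusted p = 0.318). Pcsk1, the convertase that releases glucagon-like peptides and also acts on proinsulin, rose in both sexes, from 886 ± 122 to 1214 ± 99.3 CPM in males (0.45 ± 0.12, adjusted p = 0.00954) and from 670 ± 51.5 to 1080 ± 169 CPM in females (0.69 ± 0.11, adjusted p = 0.000196). Of the 10 granule genes, 4 rose in females (Pcsk1, Cpe, Pam and Scg3) and none fell, the Scg3 call (adjusted p = 0.0249) being kept in 14 of 25 alternatives and lost without any of 6 single libraries. In males Pcsk1 rose and Chga fell (-0.44 ± 0.10, adjusted p = 0.00253), the latter call being lost with plain library totals (adjusted p = 0.0835). Beta cells use most of these proteins as well.

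Among receptors for the proglucagon-derived peptides and the related peptide GIP, Gcgr, Glp1r and Gipr fell in both sexes. They were 3 of the 4 genes tested from a list of 5, and Mme, a peptidase that breaks such peptides down, passed in neither sex. Gcgr, the glucagon receptor, went from 47.7 ± 12.8 to 13.6 ± 3.36 CPM in males and from 50.1 ± 9.26 to 15.6 ± 4.16 CPM in females, at -1.80 ± 0.23 (adjusted p = 2.88e-05) and -1.69 ± 0.21 (adjusted p = 2.07e-05). Glp1r fell by 1.61 and 1.81 on the log2 scale and Gipr by 1.27 and 1.28, in males and females. Under every alternative these 6 calls were kept. Glp1r is known mainly from beta cells in mouse islets.

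Amino acid transport and mTORC1 genes were set beside Slc38a5, beginning with its relatives. Slc38a2 and Slc38a3 did not pass in either sex, with estimates of 0.08 and -0.19 in males and -0.05 and -0.46 in females. Slc38a1 rose in males from 1.9 ± 0.654 to 5.8 ± 0.247 CPM (1.59 ± 0.41, adjusted p = 0.00675) and was at 0.01 ± 0.36 in females. Slc38a4 rose in males (0.40 ± 0.12, adjusted p = 0.0201), a call lost without male WT 3 or male S64F/+ 2 or 4 (adjusted p up to 0.0712). Of the 12 listed genes, 3 rose and 1 fell in males, and 2 rose and 2 fell in females, with medians of 0.00 and -0.02. Slc1a5, another glutamine transporter, rose in males (0.94 ± 0.15, adjusted p = 0.000153), and Slc3a2 rose in females. Rptor, a subunit of mTORC1, fell in females (-0.34 ± 0.09, adjusted p = 0.0101). Casr, a receptor for calcium and amino acids, also fell in females (-0.82 ± 0.17, adjusted p = 0.00212), while its male call (-0.57 ± 0.19, adjusted p = 0.0294) was lost under 10 of 25 alternatives, among them leaving out male WT 1, 2 or 4 or male S64F/+ 1, 2 or 3.

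Relatives and partners of the 9 genes were read in the same way, 12 of 15 being tested. Rbp4, the plasma retinol carrier that travels bound to transthyretin, rose in both sexes, from 153 ± 20.6 to 338 ± 22.3 CPM in females (1.15 ± 0.11, adjusted p = 1.18e-06) and from 142 ± 29 to 205 ± 17.3 CPM in males (0.53 ± 0.12, adjusted p = 0.00378). It is also a delta-cell gene in mice. Its interaction call (-0.62 ± 0.17, adjusted p = 0.0442) was kept in 9 of 24 alternatives.

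Gpx1 rose in females (0.54 ± 0.12, adjusted p = 0.0026) and Higd1b in males (1.36 ± 0.33, adjusted p = 0.00522). Dpp7 fell in males (-0.50 ± 0.11, adjusted p = 0.00191), and its female call (-0.29 ± 0.10, adjusted p = 0.0413) was kept in 12 of 25 alternatives. Dpp9 fell in females (-0.36 ± 0.10, adjusted p = 0.0142), a call lost without female S64F/+ 2. Dpp8 did not pass in either sex.

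Markers of other cells moved with genotype as well, and their part in the results above was not tested. Of 10 beta-cell markers 9 fell in males and 8 in females, and Mafa itself went from 905 ± 80.8 to 197 ± 52.3 CPM in males and from 639 ± 117 to 160 ± 49.8 CPM in females. Of 6 delta-cell markers 5 rose in males and 4 in females, and their summed level ran from 2605 to 5174 CPM in WT and 3623 to 5619 CPM in S64F/+ males, and from 2728 to 4205 CPM in WT and 6052 to 8197 CPM in S64F/+ females. Of 4 PP-cell markers 2 fell in each sex, and Ppy and Pyy rose in females. The summed delta-cell level, most of it Sst, was thus apart between genotypes in females and overlapped in males, like Gcg. In males Sst was the only delta-cell marker of the 6 that did not pass. Its interaction did not pass either (-0.69 ± 0.27, adjusted p = 0.133), and of the 6 only Rbp4 passed that test.

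Markers of stellate cells, vessels, ducts, nerves and macrophages were read for each sex. Of 8 stellate and fibroblast markers 7 rose in male S64F/+ islets, the summed level going from 132 to 394 CPM up to 1329 to 2118 CPM, and none passed in females (172 to 689 and 153 to 860 CPM). Endothelial markers rose in males for 6 of 8 (445 to 610 and 840 to 965 CPM) and none passed in females (506 to 710 and 539 to 735 CPM). Of 8 macrophage markers 6 rose in males (19.1 to 26.2 and 52.7 to 74.7 CPM) and 4 in females (20.5 to 32.9 and 30 to 56.5 CPM). Ductal markers rose for 5 of 8 in males (461 to 482 and 708 to 841 CPM) and 3 of 8 in females (447 to 506 and 519 to 592 CPM), and Schwann-cell markers for 3 of 7 in males (19.2 to 25.5 and 44.5 to 57 CPM) and none in females (18.7 to 34.2 and 18.6 to 78.7 CPM). In the interaction test Pdgfrb, Cdh5, Flt1, Pecam1, Csf1r, Cd68 and Spp1 of these lists passed, all higher in males, but the calls of Cd68 and Csf1r were kept in only 5 and 11 of 24 alternatives and lost without any of 16 and 12 single libraries. Those of Pdgfrb and Cdh5 were lost without male WT 4, and that of Cdh5 also without male S64F/+ 1. No acinar marker passed in either sex, with summed levels from 1265 to 22157 CPM over all libraries. No marker of any of these lists was at 0 counts in all libraries.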

How the data were processed

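Whole-islet RNA of 18 mouse libraries in 4 groups by sex and MafA genotype was measured by RNA-seq. The authors deposited raw counts per gene and FPKM values per gene, on GRCm38. Tools listed without versions in the submitters' processing notes are featureCounts, STAR, DESeq2, MultiQC and FastQC, and the annotation and strand setting are not given in the sources used. The deposited FPKM equalled the count over the plain library total and 1 whole-number length per gene, so they served only to compare genes. Of 53900 rows, 99 spike-in rows with 0 counts were left out.

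The counts were fitted in R 4.3.3 with edgeR 4.0.16 (filterByExpr with a minimum count of 10 and a minimum total of 15, TMM, robust quasi-likelihood, 1 coefficient per group, 18364 genes) with Benjamini-Hochberg adjustment per contrast at 0.05, all tests being two-sided. The script was tested on simulated data. The SE is the log2 fold change over the square root of F, and approximate 95% intervals use the normal quantile. Alternatives were plain library totals, RLE factors, totals without Ins1 and Ins2, DESeq2 1.42.0, no count filter, only the groups compared, a replicate block and leaving out each library.

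The genes and lists were chosen with earlier results of these data known. Named genes were the 9, the called list genes with the 3 smallest p per list and genotype contrast, Ins1, Ins2 and Sst, and the 10 most like Gcg. Other list genes, among them Pcsk2, Pou3f4 and Slc38a2, were named after their values were seen. Some list genes that the rule names are not reported here. Promoter windows came from RefSeq (GRCm38.p6) and gene positions from GENCODE M21. Replicates differed by more than sampling noise (chi-square per degree of freedom at least 21.7). Deviations of same-numbered female libraries correlated at 0.110 to 0.418 in all 5 pairs, and those of unlike-numbered female libraries at -0.389 to 0.494. The same-numbered female libraries were treated as pairs in a permutation within pairs (added after seeing the data). That choice rests on the data, since the labels do not state a pairing, and some unlike-numbered libraries correlated as highly. The replicate block was fitted in both sexes. The results given first are unpaired. The male correlations ran from -0.249 to 0.189 for same-numbered and from -0.408 to 0.552 for unlike-numbered libraries, and gave no pairing.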

Additional observations from a re-analysis of the deposited data

Results flagged for a closer look

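A library was set apart by its gap to the nearest other over the whole range in 3 of 36 groups of 4 or 5 libraries, 1 per gene and group. Chance alone sets apart about 1 in 20 such groups. Gcg in female WT replicate 2 was 40293 CPM, against 32532 to 34319 CPM in the other 4 (gap over range 0.77). In the same library Irx2 was 55.3 CPM, against 44.9 to 46.2 CPM (0.869). Without that library the female calls of both genes were kept. Higd1a in female S64F/+ replicate 1 was 19.1 CPM, against 26.2 to 28.9 CPM in the others (0.721).

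The response to genotype differed between the sexes by the interaction test (edgeR) for 3 of the 9 genes. Male minus female log2 fold changes were -0.75 for Gcg (0.25 in males, 1.00 in females, adjusted p = 0.0429), -0.68 for Tmem27 (-0.19 and 0.49, adjusted p = 0.0329) and -0.93 for Higd1a (0.17 and 1.10, adjusted p = 0.0172). In male S64F/+ islets the summed level of 8 stellate and fibroblast markers was 1329 to 2118 CPM, against 132 to 394 CPM in male WT and 153 to 860 CPM in female S64F/+ islets, and its part in these differences was not tested.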

How the results depend on the processing

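All 9 female calls were kept under every alternative run, and none of the 9 passed between WT males and WT females under any. The male count moved from 2 to 6 with plain library totals, to 3 with totals without Ins1 and Ins2, and stayed at 2 on leaving out each library. The interaction count moved from 3 to 0 with plain totals, to 1 with totals without Ins1 and Ins2 and to 5 with the replicate block. It was 4 by DESeq2 (Irx1 added), 2 without the filter (Gcg lost) and between 1 and 6 on leaving out 1 library. For S64F/+ males against females the count moved from 7 to 3 with plain totals, to 4 with totals without insulin or with only the 2 groups compared, to 5 without the filter, to 6 with RLE factors (Gpx3 lost) and to between 4 and 7 on leaving out 1 library. The block changed no other call of the 9 genes. The female Gcg to insulin ratio, at 1.12 with permutation within pairs, no longer passed (adjusted p = 0.0625, the smallest possible). The ratio kept its direction with Ins2 alone (1.06 in males, 1.01 in females) and on leaving out 1 library (1.00 to 1.23 in males, 0.96 to 1.22 in females). The ratio to Sst, a different quantity, had negative estimates that did not pass. They were -0.25 ± 0.23 in males and -0.15 ± 0.11 in females (exact permutation test, adjusted p = 0.343 in both). The cause of these changes was not tested.

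Without 1 library the Tmem27 interaction call was lost for male WT 3 or 4, male S64F/+ 1, 2 or 4, female WT 1, 2, 3 or 5, or female S64F/+ 4 or 5 (adjusted p up to 0.0847). Calls over all genes moved more than 1.5-fold. For the interaction, 821 became 1925 by DESeq2, 481 without the filter and 253 to 2152 on leaving out 1 library. Between the sexes in WT, 434 became 112 with plain totals, 1046 by DESeq2, 252 without the filter, 226 with only the 2 groups and 71 to 643 on leaving out 1 library. Between the sexes in S64F/+, 2962 became 1969 without the filter and 1651 to 4298 on leaving out 1 library, and the female genotype count of 3884 became 2587 with only the 2 groups. The split of higher and lower calls moved with plain totals and with totals without insulin, from 527 and 294 to 1031 and 30 and to 713 and 54 for the interaction, from 1470 and 1492 to 2752 and 377 and to 2429 and 567 between S64F/+ sexes, and with totals without insulin from 2819 and 2252 to 3073 and 1418 in males. Without the filter the interaction split was 367 and 114.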

Other observations

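On chromosome 2 the neighbours of Gcg differed in direction. Gm13565, a long noncoding RNA between Dpp4 and Gcg, fell in males, by 1.78 on the log2 scale with an SE of 0.57 (adjusted p = 0.0256), and was at -0.74 ± 0.49 in females (adjusted p = 0.306), at a mean of only 0.289 CPM over the 18 libraries. The male call was lost without male WT 2 or 4 or male S64F/+ 1 or 4. Fap, on the minus strand with 17292 bases between it and Gcg, encodes a peptidase related to Dpp4. It was at a log2 fold change of 1.07 ± 0.44 in males (adjusted p = 0.0773) and 0.64 ± 0.39 in females (adjusted p = 0.274), at a mean of 1.23 CPM. Ifih1, a sensor of viral RNA further along, rose in both sexes, by 0.51 ± 0.14 in males (adjusted p = 0.0111) and 0.40 ± 0.13 in females (adjusted p = 0.0287). These calls were lost without male S64F/+ 3 in males and without female WT 1 or 3 or female S64F/+ 1, 4 or 5 in females. Gca was at 0.06 ± 0.11 in males and 0.02 ± 0.10 in females. Kcnh7, a potassium channel gene at a mean of 0.47 CPM, rose in males (1.20 ± 0.41, adjusted p = 0.035), a call lost without male WT 1 or 2 or male S64F/+ 1 or 2, and was at 0.51 ± 0.35 in females (adjusted p = 0.334). These neighbours were named for their position, after their values were seen.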
